A study of Danio rerio with 6 samples.

Results

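Of 32520 genes counted in sorted blood progenitors of zebrafish (Danio rerio) embryos, 97 were below 1 CPM in each of 3 control libraries and at 5 CPM or more in each of 3 libraries from embryos mutant for blf and drl genes. CPM is the count of a gene per 1000000 counts of its library and is not corrected for gene length. The rule was met by 105 genes, and 8 of them were left aside because of their symbols (cldni, cldna, mfap5, cdx4, hoxb6b, krt1-19e, krt5 and PHLDA3). With the groups exchanged, the same rule was met by 27 genes. The values of this contrast chose the 97 genes, so their levels are given as a description and no test is applied to them.

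The cells were taken at 20 h post fertilization. They were red fluorescent (RFP+) cells, with RFP from a gene-trap allele of blf as the lineage tracer, sorted after the embryos were digested with Liberase, and 30000 cells went into each library. The mutant group is labelled blf-/-;drl 4KO. The genotype of the control group is given as blf-/- in the sample labels and as blf+/- in the series design, and both groups were sorted by RFP from the trap allele. The sort follows the activity of the blf locus, and the labels do not say which cells it marks in the mutants. Nothing in the labels says that the replicates of a group are separate clutches or sorts, and the spread behind each p-value, which is that among these samples, may be technical.

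At this stage of zebrafish development, blood progenitors of the intermediate mesoderm are turning into primitive red cells, which are dominated by globin RNA. Neural tissue and skin are present in the same embryo, and the first macrophages and neutrophils arise from anterior mesoderm. Zinc finger proteins encoded by blf and by drl (draculin) and its relatives act in the mesoderm that gives rise to blood. Genes such as kininogen in liver, somatostatin in neurons or complement C1q chains in macrophages are therefore used as markers of cells other than erythroid progenitors.

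Library totals lay between 12751618 and 14202026 counts in the controls and between 14063972 and 18101975 in the mutants. blf RNA was between 2157 and 2482 CPM in the controls and between 48.8 and 129.8 CPM in the mutants. For drl, drll.1 and drll.2 the controls lay between 219 and 588 CPM and no mutant library exceeded 0.498 CPM, and drll.3 fell from 26.1 to 34.9 CPM to at most 0.327 CPM. Of 16 tested genes of a blood progenitor list that includes these 5 targeted genes, 15 were lower in the mutants (edgeR adjusted p under 0.05). That is 93.8%, beside 9.92% of all tested genes, and none was higher, beside 13%. The count was not made without the targeted genes. The globin gene hbae1.1 went from a mean of 55706 to 8185 CPM and the erythroid regulator gata1a from 429.7 to 52.0 CPM. Globin and mitochondrial genes took 22.9% to 24.2% of the counts in the controls and 10.1% to 11.5% in the mutants. With library totals taken without those genes, 86 genes met the rule, of which 77 are among the 97.

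The 97 genes were near the limit of detection in the controls rather than strictly silent. Only ENSDARG00000099454, which has no symbol, had 0 reads over the 3 control libraries, 11 genes had 1 to 3 reads, and the other 85 had 4 or more, with a median of 11 and a maximum of 31. In the mutants the reads per gene, summed over 3 libraries, ran from 307 to 7261 with a median of 749. The mean mutant level was 50 CPM or more for 7 genes, 20 to 50 CPM for 23, 10 to 20 CPM for 46 and under 10 CPM for 21. These are low to moderate levels, and the genes together made up a small part of the RNA. Summed over the 97 genes, the level was 39.4, 21.4 and 24.9 CPM in controls 1, 2 and 3 and 2476, 2029.8 and 2159 CPM in mutants 1, 2 and 3. The mean share of all counts was thus 0.222% in the mutants and 0.00286% in the controls.

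The mutant-to-control ratio of depth-scaled summed reads ranged from 11.08 for the glypican gene gpc1b to 1951 for the natriuretic peptide gene nppc, with a median of 56.6. nppc had a single control read, and its ratio has a 95% exact binomial interval of 349.8 to 77093. Such intervals, here and below, pool the reads of the libraries of a group and so leave out the spread between replicates. No molecular identifiers were used, so duplicate reads are counted as well. The intervals also take no account of the choice of these genes by the same values, and they describe reads without testing a gene. For ENSDARG00000099454, at 13.3, 8.88 and 5.62 CPM in the mutants, the level was 131-fold that of an assumed floor of 3 reads over the controls. The 95% exact binomial interval of its ratio has a lower limit of 106. Control 1 had the highest control level for 64 of the 97 genes, against 16 for control 2 and 17 for control 3. The matching shares over other genes were not counted. Zero reads were recorded for 6 genes in control 1, 22 in control 2 and 15 in control 3.

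Across all genes, edgeR called 1887 of 14517 tested genes higher in the mutants (13%) and 1440 lower (9.92%) with TMM scaling, and 2402 higher and 959 lower with scaling by library totals. The median log2 fold change of all tested genes was 0.11 with TMM and 0.42 with library totals, a shift of 0.31. All 97 genes were among the genes called higher, beside a background of 13%, and nothing is read from that count because the same contrast chose them. All mutant libraries were above all controls for 27.8% of tested genes, which the rule fixes for the 97.

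At the edges of the rule, the lowest mutant values of a gene that was kept were 5.03 CPM for si:ch211-105c13.3, 5.03 CPM for gpc1b and 5.08 CPM for EFNA5. The genes that just missed had minima of 4.98 CPM (ENSDARG00000103590), 4.97 CPM (zgc:112146) and 4.91 CPM (si:dkeyp-85e10.3). On the control side, cfd reached 0.986 CPM, zgc:173742 0.941 CPM and WWC1 0.929 CPM, while zgc:86896, GPT and fgfbp1b each reached 1.0002 CPM and were not kept. The boundary thus runs through a continuum of low levels.

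Of the 97 genes, 81 have a gene name, 14 a clone-based symbol and 2 none. Symbols in capitals (50 genes) are printed as the name table lists them. Sorting by known expression placed 27 genes in the 4 tissues: 6 with liver, 8 with nerve, 2 with skin and 11 with leukocytes. Marker lists placed 12 genes (1 of them with muscle) and the other 69 named genes were sorted by hand from their symbols. Besides the tissues there were 20 genes of patterning and signalling, 10 of enzymes and transport, 6 of cytoskeleton, adhesion and matrix, 5 of muscle and tendon, 3 of cilia and 10 others. In these sorted cell pools, more cells of a type and more RNA per cell cannot be told apart.

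**Figure D1:**
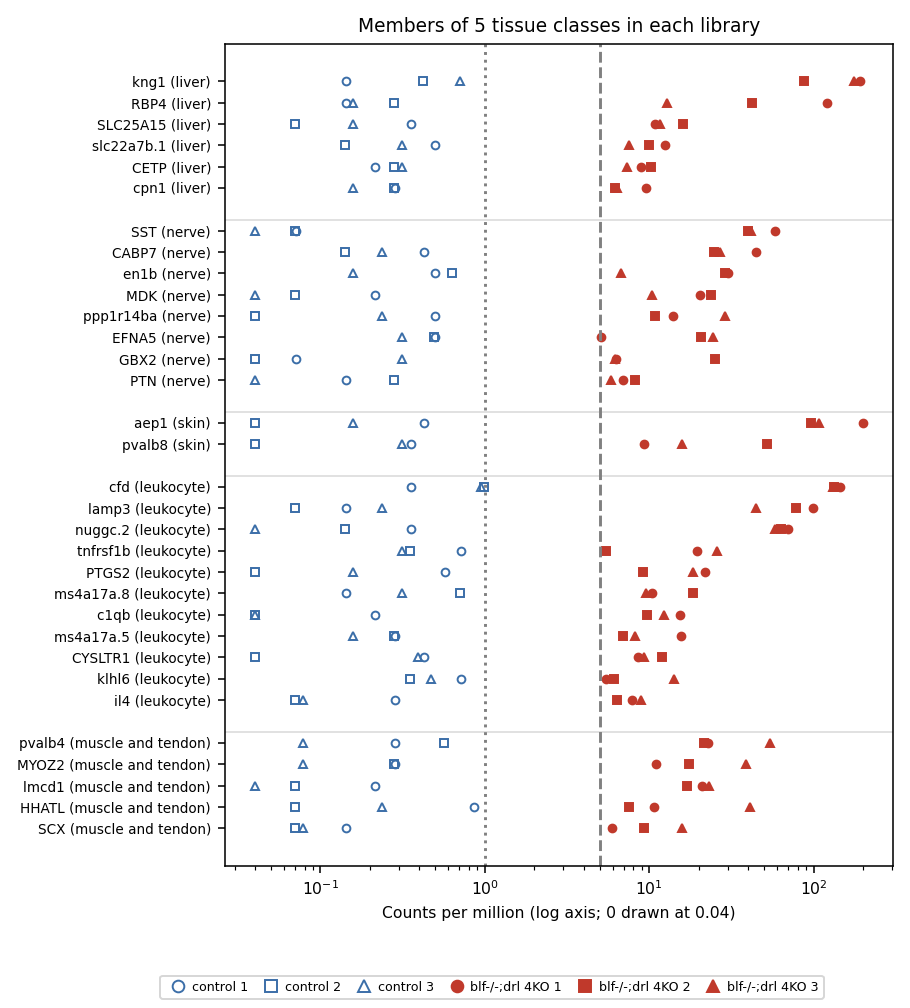
Level of each of the 32 genes sorted to liver, nerve, skin, leukocytes or muscle and tendon in every library, in CPM on a log axis (0 drawn at 0.04), with open blue symbols for controls and filled red symbols for mutants and 1 shape per replicate number. Dotted and dashed lines mark the limits of the rule at 1 and 5 CPM, and the mutant values spread from 5.08 CPM for EFNA5 to 199 CPM for aep1.

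The liver genes were led by kng1 (ENSDARG00000022372), which encodes kininogen, the plasma precursor of bradykinin. Its level was 0.143, 0.422 and 0.706 CPM in controls 1, 2 and 3 and 192, 87.1 and 175 CPM in mutants 1, 2 and 3, from 17 and 7261 reads, a ratio of 368. Mutant 2 was the lowest of the mutants, and kng1 alone made up 60.8% of the liver total. RBP4 (ENSDARG00000101199), the plasma carrier of retinol, was at 0.143, 0.282 and 0.157 CPM in the controls and 120.15, 42.0 and 12.9 CPM in the mutants, so that mutant 1 held most of its reads. Its coefficient of variation (CV, SD over mean) of 95.1% was the largest of the 97 genes.

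The other 4 liver genes were lower and more even. SLC25A15, the mitochondrial ornithine carrier of the urea cycle, was at 0.0704 to 0.357 CPM in the controls and 10.9, 16.1 and 11.7 CPM in the mutants. slc22a7b.1, an organic anion transporter, reached 0.5 CPM in control 1 and stood at 12.5, 9.99 and 7.54 CPM in the mutants. CETP, which moves cholesteryl esters between lipoproteins in mammals, was at 0.214 to 0.314 CPM and then 8.84, 10.3 and 7.32 CPM. For cpn1, the catalytic subunit of the plasma carboxypeptidase N, the controls lay between 0.157 and 0.286 CPM and the mutants at 9.50, 6.2 and 6.33 CPM. The 6 genes summed to 354, 172 and 220.5 CPM in mutants 1, 2 and 3 (249 ± 94.1 CPM, SD, n = 3), with a CV of 37.9% that was 60.7% without kng1.

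Defining liver markers were at or near 0 or uneven between libraries. fabp10a, the liver fatty acid binding protein, had 1 read in the controls and 55 in the mutants, at 0.331, 0.588 and 2.84 CPM. TTR (transthyretin) had 1 control read and 0 mutant reads. HNF4A, a regulator of hepatocyte identity that is also active in gut and kidney, had 11.7, 0.457 and 19.6 CPM in the mutants against a control mean of 1.15 CPM and did not pass (edgeR adjusted p = 0.114). Of 46 tested genes of the liver list that are not among the 97, 6 rose, 1 fell and 39 did not pass. The 6 are 13% of those tested, beside 13% of all tested genes. That background includes the 97 and is not matched for control level. Only 11 of the 46 had a control mean of at least 5 CPM. The gene that fell makes 2.17%, beside 9.92% of all tested genes, and the median log2 fold change was 0.78 beside 0.11.

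The liver-list genes that rose included apoeb, sult2st1, foxa3 and fbp1a. apoeb, an apolipoprotein E gene, rose from 41.7 ± 8.75 to 414 ± 193 CPM (a log2 fold change of 2.99 ± 0.34, SE, and edgeR adjusted p = 0.000115). sult2st1, a cytosolic sulfotransferase, went from 60.3 ± 20.1 to 282 ± 83.4 CPM (a log2 fold change of 1.92 ± 0.28, SE, and edgeR adjusted p = 0.00073). The gene that fell was asgr1a, an asialoglycoprotein receptor gene, from 3.42 to 0.333 CPM. Neither the coagulation gene f5, at 76.9 ± 46.4 and 163 ± 25.3 CPM (edgeR adjusted p = 0.205), nor LECT2, at 33.0 ± 18.0 and 64.6 ± 14.3 CPM (edgeR adjusted p = 0.301), passed, although f5 passed without control 3 (edgeR adjusted p = 0.0356). Summed over the list without the 97, the level was 280.2 to 415 CPM in the controls and 969 to 1508 CPM in the mutants. The mean of this sum went from 359 to 1316 CPM, and much of that rise came from apoeb and sult2st1. The part of the list in the levels of the 6 liver genes was not tested.

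Among the 8 nerve genes, 5 placed by the marker list and 3 by hand, the neuropeptide gene SST (somatostatin), placed by hand, was the most abundant. It had 2 reads in the controls and 58.3, 39.6 and 41.4 CPM in the mutants, a ratio of 967 (95% exact binomial interval 267 to 7992). CABP7, a neuronal calcium binding protein, followed at 44.4, 24.7 and 27.0 CPM in the mutants against at most 0.429 CPM in a control. Both were highest in mutant 1.

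The homeobox genes of the midbrain-hindbrain region were uneven. en1b, an engrailed gene, was at 29.9, 29.1 and 6.75 CPM in mutants 1, 2 and 3, and 0.5, 0.634 and 0.157 CPM in the controls. GBX2, which marks the anterior hindbrain, was at 6.24, 25.1 and 6.19 CPM, with mutant 2 standing apart, and had 5 reads over the controls. Mutant 2 was high and mutant 3 low for both genes, and they differed in mutant 1, which was high for en1b and low for GBX2.

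The related heparin-binding growth factors midkine and pleiotrophin were both present. MDK (ENSDARG00000020708) was at 20.4, 23.6 and 10.5 CPM in the mutants from 4 control reads, and PTN at 6.96, 8.16 and 5.83 CPM from 6 control reads. ppp1r14ba, a regulatory subunit of protein phosphatase 1, was highest in mutant 3, at 13.9, 10.8 and 28.9 CPM. EFNA5, an ephrin that guides axons, was at 5.08, 20.6 and 24.3 CPM, so mutant 1 was the low library there. As a sum, the 8 genes were even, at 185, 182 and 151 CPM (173 ± 18.9 CPM, CV 10.9%), because different libraries were high for different genes.

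Defining neural markers were low. The neuronal RNA-binding protein gene ELAVL3 was at 0.773, 2.81 and 22.6 CPM in the mutants and did not pass (edgeR adjusted p = 0.323), and NEUROD1 had 0, 13.6 and 0.0711 CPM, all but a few of its reads in mutant 2. The glial gene GFAP fell from 1.59 to 0.284 CPM (a log2 fold change of -2.75 ± 0.77, SE, and edgeR adjusted p = 0.0251). Of 93 tested nerve-list genes outside the 97, 16 rose, 2 fell (tubb4b and GFAP) and 75 did not pass, with a median log2 fold change of 1.03. The share that rose, 17.2%, was near the 13% of all tested genes, while 2.15% fell, beside 9.92%. The median log2 fold change of all tested genes was 0.11. Only 11 of the 93 had a control mean of at least 5 CPM, and the 13% is not matched for control level.

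Of the 3 most abundant nerve-list genes that passed, marcksl1b and MDK (ENSDARG00000036036) rose and tubb4b fell. The name tubb4b was not written in the list and came in as a synonym. marcksl1b, a protein kinase C substrate of growing neurites, rose from 89.1 ± 8.38 to 464 ± 29.8 CPM (a log2 fold change of 2.06 ± 0.19, SE, and edgeR adjusted p = 2.52e-05). The tubulin gene tubb4b fell from 713 ± 119 to 445 ± 96.3 CPM (a log2 fold change of -1.01 ± 0.20, SE, and edgeR adjusted p = 0.00455). STMN1, a microtubule regulator, did not pass at 164 ± 52.9 and 248 ± 88.5 CPM (edgeR adjusted p = 0.552), nor did the G protein subunit gene GNG2 at 61.6 ± 20.7 and 124 ± 35.2 CPM (edgeR adjusted p = 0.117), although GNG2 passed with library totals (edgeR adjusted p = 0.0394). Of the nerve list, 10 genes stand in another list too, so it is not made of nerve genes alone. Its sum without the 97 was 1261 to 1391 CPM in the controls and 2318 to 2691 CPM in the mutants, and its part in the 8 nerve genes was not tested.

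Only 2 of the genes sorted with skin, aep1 and pvalb8, both by the marker list alone. Whether pvalb8 is particular to skin was not checked. aep1, an aerolysin-like pore-forming protein gene of fish epidermis, was at 0.429, 0 and 0.157 CPM in the controls and 199, 96.1 and 107 CPM in the mutants, a ratio of 709.6 from 8 control reads. pvalb8, a calcium-buffering parvalbumin, was at 9.23, 52.0 and 15.8 CPM in the mutants and had 9 control reads. aep1 was highest in mutant 1 and pvalb8 in mutant 2, and aep1 made up 83.9% of their sum.

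The keratin and claudin genes krt5, krt1-19e, cldna and cldni met the same limits but were left aside by symbol, so the count of 2 depends on that choice. Of the defining epithelial markers, 3 were higher in the mutants and were also above 1 CPM in the controls. The adhesion gene epcam rose from a mean of 44.6 to 405 CPM (edgeR adjusted p = 0.000189), E-cadherin cdh1 from 11.9 to 92.6 CPM (edgeR adjusted p = 0.000223) and the basal keratinocyte regulator TP63 from 4.53 to 37.1 CPM (edgeR adjusted p = 0.00415). Of 93 tested skin-list genes outside the 97, 35 rose (37.6%, beside 13% of all tested genes), 2 fell (2.15%, beside 9.92%) and 56 did not pass, with a median log2 fold change of 1.67. Among the 36 of them with a control mean of at least 5 CPM, 20 rose, but the share among all tested genes of that control level was not counted.

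The S100 gene s100a10b rose from 17.5 ± 8.64 to 739 ± 290.2 CPM (a log2 fold change of 5.11 ± 0.39, SE, and edgeR adjusted p = 7.01e-06). MYH9, a non-muscle myosin, rose from 74.6 ± 29.1 to 467 ± 37.1 CPM (a log2 fold change of 2.32 ± 0.27, SE, and edgeR adjusted p = 0.000158). SLC4A1 (ENSDARG00000012881) came into the skin list through slc4a1b, a name matched without its paralog suffix to a symbol of 2 genes. That symbol is also the band 3 anion exchanger of red cells, and which paralog this gene is was not checked. SLC4A1 was lower in the mutants, at 672 ± 93.6 against 3542 ± 376 CPM (a log2 fold change of -2.71 ± 0.13, SE, and edgeR adjusted p = 3.63e-07). The other gene that fell was the adhesion receptor adgrg1, from 66.2 to 28.7 CPM. The desmosomal genes JUP, at 100.5 ± 19.4 and 121 ± 9.65 CPM (edgeR adjusted p = 0.917), and PERP, at 65.0 ± 13.1 and 97.3 ± 23.4 CPM (edgeR adjusted p = 0.523), did not pass. The sum of the list without the 97, which includes SLC4A1, was 4291 to 5324 CPM in the controls and 5504 to 6852 CPM in the mutants, and its part in the 2 skin genes was not tested.

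Leukocyte genes formed the largest of the 4 tissues, with 11 genes summing to 417, 349 and 339.5 CPM in mutants 1, 2 and 3 (368 ± 42.6 CPM, CV 11.6%). Only 2 of the 11 were placed by the marker list, and 9 were sorted by hand. cfd (ENSDARG00000039579), complement factor D, the protease that starts the alternative complement pathway, was at 0.357, 0.986 and 0.941 CPM in the controls. It reached 144, 134 and 130.3 CPM in the mutants, a ratio of 180.2, with a CV of 5.09% that made it the third most even gene. cfd alone made up 36.8% of the leukocyte sum in the mutants. Its place there was chosen by hand, while several other complement factor genes stand in the liver list. lamp3, a lysosomal membrane protein of dendritic cells in mammals, was at 0.0704 to 0.235 CPM in the controls and 99.3, 78.0 and 44.5 CPM in the mutants. nuggc.2, whose mammalian relative is a nuclear GTPase of germinal centre B cells, was at 70.2, 62.9 and 58.3 CPM from 7 control reads. All 3 genes were highest in mutant 1 and lowest in mutant 3.

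The remaining leukocyte genes were below 30 CPM. The tumour necrosis factor receptor gene tnfrsf1b was at 19.4, 5.49 and 25.8 CPM in the mutants, with mutant 2 low. PTGS2, the inducible cyclooxygenase of prostaglandin synthesis, was at 21.9, 9.14 and 18.3 CPM and also lowest in mutant 2. c1qb, a chain of complement C1q made by macrophages, had 3 control reads and 15.3, 9.73 and 12.3 CPM in the mutants, a ratio of 172 (95% exact binomial interval 58.6 to 837). The membrane-spanning ms4a17a.8 was at 10.3, 18.5 and 9.53 CPM and its relative ms4a17a.5 at 15.7, 6.92 and 8.18 CPM, so the pair was not high in the same library. CYSLTR1, a leukotriene receptor, klhl6, a B cell adaptor in mammals, and the cytokine il4 lay between 5.41 and 14.1 CPM in the mutants and had 11, 21 and 6 control reads.

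Leukocyte genes outside the 97 were mostly higher in the mutants. Of 111 tested, 67 rose (60.4%, beside 13% of all tested genes), 1 fell (the chemokine ccl19a.1) and 43 did not pass, with a median log2 fold change of 2.1. Among the 74 with a control mean of at least 5 CPM, 58 rose, so the rises were not confined to genes near 0 in the controls. The share that rose among all tested genes of that control level was not counted, so 58 of 74 has no background beside it. The macrophage gene MPEG1 (ENSDARG00000055290) rose from 51.3 to 297 CPM (edgeR adjusted p = 5.68e-05) and the actin-binding CORO1A from 47.3 to 223 CPM (edgeR adjusted p = 0.000264). Further genes with the MPEG1 symbol were near the floor and not tested. Their means went from 0.729 to 0.275 CPM (ENSDARG00000043093) and from 0.323 to 0.273 CPM (ENSDARG00000078569).

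npsn, a neutrophil metalloprotease gene, rose from 187 ± 66.7 to 1172 ± 273 CPM (a log2 fold change of 2.32 ± 0.27, SE, and edgeR adjusted p = 0.000133). fcer1gl, an Fc receptor signalling chain, rose from 120.4 ± 24.8 to 938 ± 77.3 CPM (a log2 fold change of 2.64 ± 0.21, SE, and edgeR adjusted p = 8.14e-06), and LCP1, the leukocyte plastin, from 139 ± 4.90 to 909 ± 147 CPM (a log2 fold change of 2.39 ± 0.17, SE, and edgeR adjusted p = 4.25e-06). The kinase gene BTK, at 88.0 ± 10.7 and 103 ± 24.7 CPM (edgeR adjusted p = 0.857), and the proteoglycan gene srgn, at 46.5 ± 2.2 and 102 ± 43.1 CPM (edgeR adjusted p = 0.111), did not pass, although srgn passed with library totals (edgeR adjusted p = 0.0331) and without mutant 3 (edgeR adjusted p = 0.0197). The list without the 97 summed to 2631 to 2913 CPM in the controls and 13728 to 15758 CPM in the mutants, and its part in the 11 leukocyte genes was not tested.

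**Figure D2:**
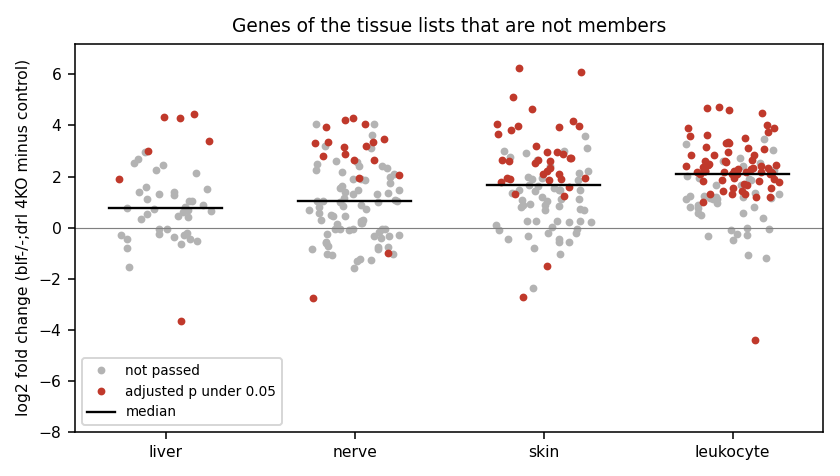
Log2 fold change (mutant minus control, TMM-scaled) of every tested gene of the liver, nerve, skin and leukocyte lists that is not among the 97, with red points past an edgeR adjusted p of 0.05, grey points not past it and black bars at the list medians. The medians are 0.78, 1.03, 1.67 and 2.1, and 6, 16, 35 and 67 genes rose.

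The 4 lists together had 343 tested genes outside the 97, of which 124 rose (36.2%, beside 13% of all tested genes) and 6 fell (1.75%, beside 9.92%), and the share that rose was between 13% for liver and 60.4% for leukocytes. The lists are mixed, since 2 liver, 10 nerve, 1 skin and 6 leukocyte genes stand in another list as well. Genes with a control mean of at least 5 CPM rose in 2 of 11 cases for liver, 4 of 11 for nerve, 20 of 36 for skin and 58 of 74 for leukocytes. The share among all tested genes of that control level was not counted, so these counts have no background beside them.

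Muscle and tendon genes were each highest in the same library. pvalb4, a parvalbumin of fast muscle, was at 22.7, 21.6 and 54.2 CPM in the mutants, MYOZ2, which encodes a Z-disc protein, at 10.9, 17.5 and 38.6 CPM, and HHATL at 10.7, 7.58 and 41.1 CPM. lmcd1, a LIM domain protein gene, was more even at 20.8, 17.04 and 23.0 CPM, and the tendon transcription factor gene SCX was at 5.91, 9.34 and 15.7 CPM. Mutant 3 was thus the highest for all 5, and their sum was 71.0, 73.1 and 173 CPM (CV 55.0%). Muscle-list genes outside the 97 summed to 14590, 7538 and 19448 CPM in mutants 1, 2 and 3 and to 1078 to 3924 CPM in the controls, also highest in mutant 3, and 29 of 72 tested rose (40.3%, beside 13% of all tested genes). The part of this muscle RNA in the values of the 5 genes was not tested.

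Patterning and signalling held the most genes, 20, and was even as a sum, at 356, 309.7 and 299 CPM (CV 9.45%). nppc, the C-type natriuretic peptide, led at 46.0, 56.4 and 40.2 CPM in the mutants. Transcription factors of limb and heart patterning were among them. TBX3 was at 28.4, 21.7 and 24.3 CPM in the mutants from 17 control reads. pitx1, a hindlimb and pituitary homeobox gene, was at 15.8, 16.0 and 16.4 CPM from 4 control reads, the most even of the 97 genes with a CV of 1.99%, below the 6.31% that counting error alone gives. HMGA2 and the retinoic acid receptor gene RARG lay between 5.36 and 21.4 CPM in the mutants.

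Secreted ligands and inhibitors included WNT11, at 17.4, 12.02 and 10.7 CPM in the mutants, and BMP5, at 9.50, 11.3 and 8.60 CPM. SOST, which encodes the secreted Wnt inhibitor sclerostin, had 3 control reads and 6.85, 27.4 and 14.7 CPM in the mutants, a ratio of 216 (95% exact binomial interval 73.5 to 1048), with mutant 2 high. In the planar polarity and Hippo pathways, FJX1 (four-jointed) was at 41.5, 8.16 and 18.9 CPM and WWC1 (KIBRA) at 25.7, 11.9 and 28.0 CPM, both low in mutant 2. rgs5b, a regulator of G protein signalling, was at 40.5, 6.92 and 15.3 CPM, so most of its reads came from mutant 1. Further genes of this class (sh3bp1, GNAI3, F2R, LYPD6, rasl11a, hhipl1 and gpc1b) lay between 5.03 and 22.6 CPM in the mutants.

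The remaining named genes were enzymes, transporters, cytoskeletal and ciliary genes. GPD1 (ENSDARG00000043701), a glycerol-3-phosphate dehydrogenase, had 2 control reads and 50.9, 13.8 and 52.1 CPM in the mutants, a ratio of 805 (95% exact binomial interval 222 to 6649.7). ATP1B1 (ENSDARG00000076833), a sodium pump subunit, was at 60.3, 30.8 and 16.1 CPM and GSN (ENSDARG00000045262), the actin-severing gelsolin, at 45.4, 29.8 and 8.39 CPM, both lowest in mutant 3. The histamine-degrading HNMT was high in mutant 2 alone, at 11.5, 35.7 and 12.6 CPM. The other genes of enzymes and transport (RPE65, ELOVL1, b3gnt2l, SLC27A1, LRRC8C, FLVCR1 and gbgt1l4) lay between 5.55 and 32.3 CPM in the mutants. Those of cytoskeleton and adhesion (PLS3, TPM4, SEPTIN8 and PARVA) lay between 6.26 and 27.5 CPM, and the 10 genes sorted to no class (chchd3b, EVA1A, sp100.4, tmem154, ANKRD22, ACBD3, ANXA3, CIB2, DCUN1D2 and JAGN1) between 5.47 and 30.5 CPM. The 3 genes of cilia, DYNC2LI1, MNS1 and DRC3, were low throughout, between 5.22 and 13.9 CPM. The 16 clone-based or unnamed genes summed to 340.2, 382 and 396 CPM in mutants 1, 2 and 3, the highest class mean at 373 CPM, and si:dkey-102c8.3 was the highest at 74.5, 43.4 and 136 CPM.

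**Figure D3:**
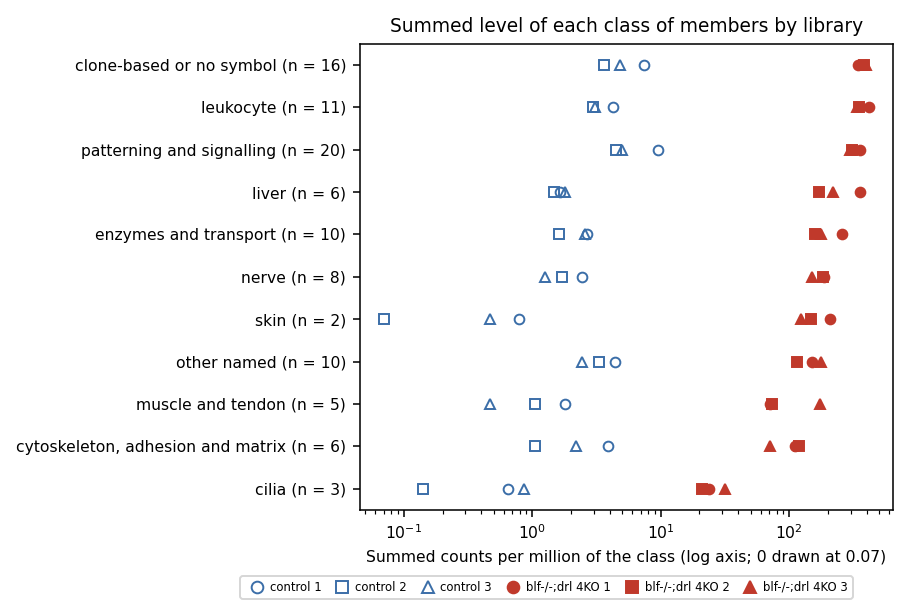
Summed level of each class of the 97 genes in every library, in CPM on a log axis (0 drawn at 0.07), with open blue symbols for controls, filled red symbols for mutants and the number of genes beside each class. Mutant sums run from 21.0 CPM for cilia to 417 CPM for leukocytes, and the muscle and tendon class shows mutant 3 at 173 CPM apart from 71.0 and 73.1 CPM.

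Evenness over the mutant replicates was measured by the CV of CPM over the 3 libraries. The median CV of the 97 genes was 39.7%, with a range of 1.99% to 95.1%, and 90 genes had a CV more than 2 times that of counting error alone, which had a median of 6.35%. The highest mutant library exceeded the lowest by less than 2-fold for 44 genes and by 3-fold or more for 28, with a median of 2.2 and a maximum of 9.34, reached by RBP4. The minimum of 5 CPM in each library keeps out low values and so limits how large this spread can be, most of all for genes of low mean.

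The rule asks for 5 CPM in every mutant library, so no gene read in a single mutant library could be in the set. Mutant 1 was the highest for 34 genes, mutant 2 for 30 and mutant 3 for 33. Among 6590 other genes of that minimum and range of means, the shares were similar, at 33.3%, 35.6% and 31.2%. The lowest mutant was library 1 for 23 genes, library 2 for 40 and library 3 for 34. Mutant 2 was thus the lowest for 41.2% of the set, beside 30.9% of the other genes. Mutant 1 was the lowest for 23.7%, beside 31.9%. No test was applied to these shares. The sum over the 97 genes had a CV of 10.3%. The 7 genes of 50 CPM or more were the exception in that 6 of them were highest in mutant 1, beside 33.4% of other genes of that level.

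The most even genes after pitx1 were mmp30, a matrix metalloprotease gene, at 11.5, 11.4 and 11.9 CPM (CV 2.64%), and cfd (CV 5.09%). After RBP4, the least even were HHATL (CV 93.5%), highest in mutant 3, and pvalb8 (CV 89.7%), highest in mutant 2. Each of the 3 least even genes was thus high in a different library.

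Other genes that also had at least 5 CPM in each mutant library and a mean in the range of the 97 had a median CV of 30.2% (n = 6590 genes). At 5 to 10 CPM the median CV was 25.5% for the 21 genes of the set and 27.2% for 355 others. At 10 to 20 CPM it was 46.8% and 38.9%, at 20 to 50 CPM 44.2% and 33.4%, and at 50 CPM or more 37.3% and 21.8%. The set was less even than other genes in 3 of the 4 ranges, as a description without a test.

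**Figure D4:**
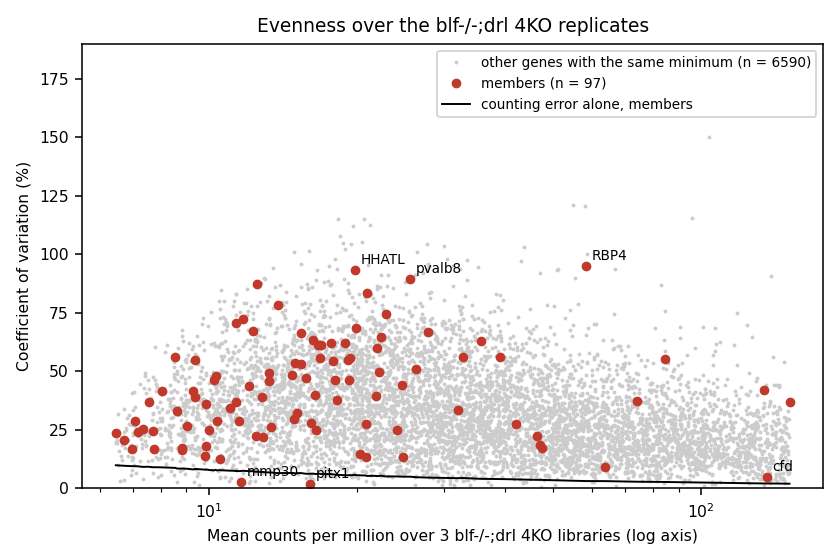
Coefficient of variation over the 3 mutant libraries (in percent) against the mean level in CPM (log axis), with red points for the 97 genes, grey points for 6590 other genes that meet the same minimum and a black line for counting error alone in the 97. Most red points lie far above the line, from pitx1 at 1.99% to RBP4 at 95.1%.

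Zebrafish often keep duplicate genes, and 22 of the 97 shared their symbol with 28 other genes in the name table. Genes that share a symbol are called copies or partners here by symbol alone, and whether they are duplicates was not checked. Reads of near-identical copies may have been divided between them by the counting, so the split within a pair is uncertain. These 28 genes were not chosen on the contrast and 19 of them could be tested. By edgeR, 4 rose (ATP1B1, GSN, ELOVL1 and MDK), 2 fell (GPD1 and SLC27A1) and 13 did not pass. These shares, 21.1% higher and 10.5% lower, were near the 13% and 9.92% of all tested genes. A control mean of at least 5 CPM was found for 11 of the 28, so another gene of that symbol was expressed in the controls.

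GPD1 had a partner that fell. The gene outside the set (ENSDARG00000043180) was at 96.7, 93.5 and 118 CPM in the controls and 21.4, 3.07 and 16.4 CPM in the mutants (a log2 fold change of -3.21 ± 0.58, SE, and edgeR adjusted p = 0.00255). The copy in the set, whose low control level the rule fixes, held 74.1% of the summed level of the pair in the mutants. SLC27A1, a fatty acid transporter, was similar in direction: ENSDARG00000006240 fell from 56.9 ± 9.68 to 27.4 ± 10.03 CPM (a log2 fold change of -1.36 ± 0.39, SE, and edgeR adjusted p = 0.0274), while ENSDARG00000104949 of the set was at 22.9, 8.03 and 16.3 CPM in the mutants. That fall did not pass with library totals (edgeR adjusted p = 0.0678), without a filter on low counts (edgeR adjusted p = 0.0720) or without any of control 2, control 3, mutant 1 and mutant 2 (adjusted p up to 0.131).

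F2R, a thrombin receptor, had 6 further genes with its symbol. ENSDARG00000060012 was at 35.7, 35.5 and 28.5 CPM in the controls and 3.04, 13.6 and 0 CPM in the mutants, groups that did not overlap, but did not pass (a log2 fold change of -2.93 ± 1.15, SE, and edgeR adjusted p = 0.0912). It passed without mutant 2 (edgeR adjusted p = 0.0285) and without mutant 3 (edgeR adjusted p = 0.0428). The F2R gene of the set (ENSDARG00000086236) had 1 control read and 14.3, 13.3 and 6.54 CPM in the mutants.

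Other partners were higher in the mutants, as were the genes of the set. The MDK gene outside the set (ENSDARG00000036036) rose from 30.0 ± 12.98 to 229 ± 40.81 CPM (a log2 fold change of 2.64 ± 0.29, SE, and edgeR adjusted p = 9.21e-05), ATP1B1 (ENSDARG00000013144) from 419 ± 54.7 to 1073 ± 255 CPM (a log2 fold change of 1.04 ± 0.21, SE, and edgeR adjusted p = 0.00502). ELOVL1 (ENSDARG00000103735), a fatty acid elongase, rose from 31.1 ± 8.79 to 129.7 ± 34.4 CPM (a log2 fold change of 1.76 ± 0.30, SE, and edgeR adjusted p = 0.0018). GSN (ENSDARG00000011459) rose from 3.11 ± 2.86 to 23.2 ± 4.92 CPM (a log2 fold change of 2.64 ± 0.79, SE, and edgeR adjusted p = 0.033), a call lost when any library but control 1 was left out (adjusted p up to 0.107). In the sum of the copies, the genes of the set held 7.36% for MDK, 3.22% for ATP1B1 and 12.7% for ELOVL1 in the mutants.

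The means of other copies lay close together in the 2 groups. JAGN1 (ENSDARG00000014995), an endoplasmic reticulum protein gene, was at 79.7 ± 6.57 and 98.0 ± 16.3 CPM (edgeR adjusted p = 0.979) and DCUN1D2 (ENSDARG00000040838) at 37.6 ± 7.74 and 37.7 ± 24.3 CPM (edgeR adjusted p = 0.704). For these symbols, another gene of the same symbol was thus already present in the controls, where the gene of the set was below 1 CPM by the rule. A p that misses the threshold does not show that these levels are equal.

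**Figure D5:**
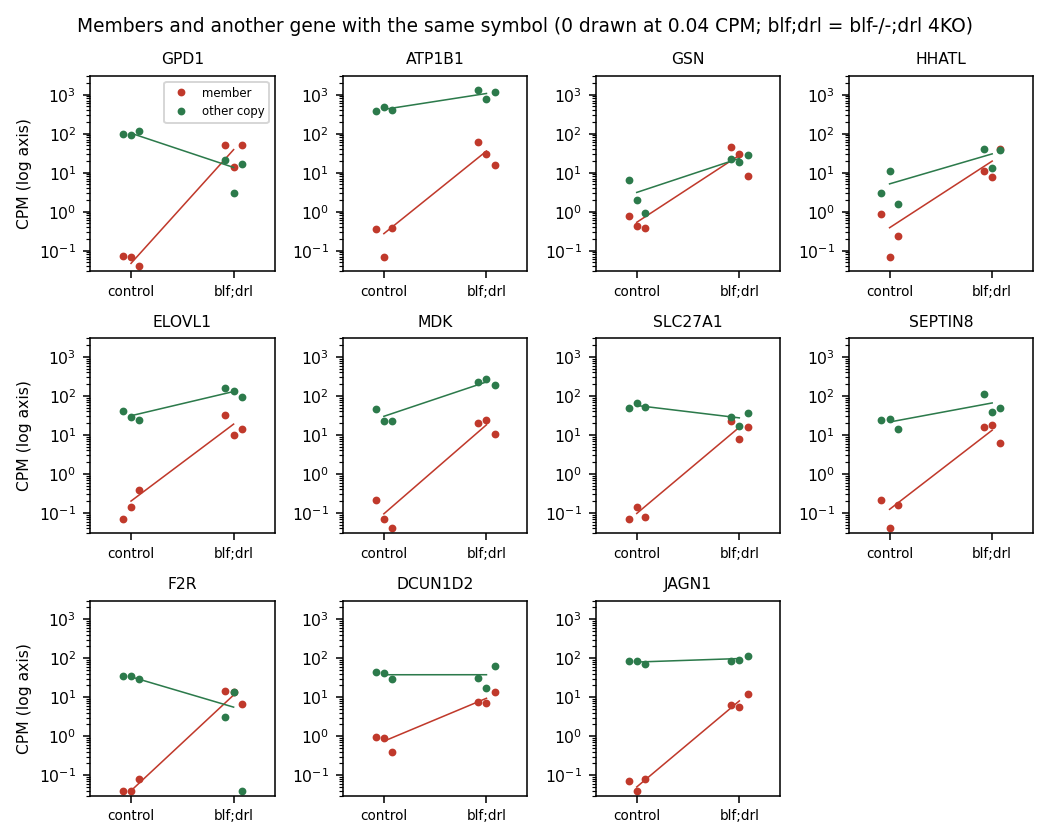
Level in CPM (log axis, 0 drawn at 0.04) of genes of the set (red) and of another gene with the same symbol (green) in each control and mutant library, for most partners of at least 5 CPM in the control mean or past the edgeR threshold, with lines joining the group means. GPD1 shows the partner falling from a mean of 103 to 13.6 CPM beside its copy, and MDK shows both copies higher in the mutants.

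Position in the genome was looked at only as gene order, since the available gene table is of another assembly (GRCz12tu) than the counts (GRCz11). Of the 97 genes, 41 could be placed by symbol, and 3 pairs lay within 5 protein-coding genes of each other. They were kng1 with lamp3, pvalb8 with pvalb4, and ms4a17a.8 with ms4a17a.5, each pair being direct neighbours. How many such pairs an equal number of other genes would give was not counted, so nothing is read from the number of pairs. kng1 and lamp3 had different mutant profiles, at 192, 87.1 and 175 CPM and at 99.3, 78.0 and 44.5 CPM, and were sorted to different tissues. The neighbouring parvalbumin genes differed in the same way, with pvalb8 highest in mutant 2 and pvalb4 in mutant 3.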

How the data were processed

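RNA-seq was analysed from 3 control and 3 blf-/-;drl 4KO libraries (20 h post fertilization). The authors deposited raw counts for each Ensembl gene ID. The tools named in the submitters' processing notes are featureCounts 1.6.0, SAMtools 1.10, HISAT2 2.2.1, FastQC 0.11.9 and bcl2fastq, with the build GRCz11. The sources used here do not give the strand setting, the annotation release or the handling of reads that fit several genes, so copies, overlapping and antisense genes may share reads. A name table gave symbols to 29201 IDs (89.8%).

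Groups and replicate numbers came from the sample titles. Replicates of a group were not the same library deposited again (their chi-square statistic over its degrees of freedom was 31.8 to 68.0). CPM were computed from library totals. edgeR 4.0.16 (R 4.3.3) used filterByExpr, TMM factors and the robust quasi-likelihood test on 14517 genes, with Benjamini-Hochberg adjustment over all of them and a threshold of 0.05. The fit was tested on simulated data. SE is the log2 fold change divided by the square root of F. Errors beside CPM are SDs, n = 3. Ratios with few reads have 95% exact binomial intervals of pooled reads, which leave out replicate spread and the choice of the genes. A floor of 3 reads replaces 0.

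The genes, classes and marker lists were chosen with earlier results of these data known, so no pattern among them is independent support. Marker names were matched by symbol, capital form, capital form without the paralog suffix, or synonym. Named were up to 8 genes of highest mutant mean per tissue, the 3 most and least even, the genes at the edges, and per tissue list the 3 most abundant genes that passed and 2 that did not. Further genes were named after their values were seen. Alternatives were RLE factors, library totals, no filter, DESeq2 1.42.0, a replicate block, each replicate left out, other thresholds, other CPM scalings and, chosen after seeing the data, lists limited to symbols with a single match. No sequences or coordinates were used. Some genes that the naming rule covers are not reported here by name, although the counts include them.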

Additional observations from a re-analysis of the deposited data

How the results depend on the processing

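The number of genes meeting the rule depends on its limits. It was 97, and 48 and 225 with control limits of 0.5 and 2 CPM, 165 and 40 with mutant limits of 3 and 10 CPM, and 138 to 249 with 1 library left out (249 without control 1, 166 without control 2, 138 without control 3, and 160.0, 156 and 173 without mutants 1, 2 and 3). It was 83 with TMM-scaled CPM (all among the 97) and 86 with totals free of globin and mitochondrial genes (77 among the 97, 20 lost and 9 others gained), and mean levels moved beyond the replicate SD for 4 of the 97 under each scaling. Median CV was 29.7% to 41.8%. Genes called higher ranged from 1342 to 1551 with a library left out and were 2626 with DESeq2. Genes called lower were 959 with library totals, 868 to 1220.0 with a library left out (868 without control 2) and 2108 with DESeq2. Rises in the 4 lists outside the 97 numbered 97 to 113 with a library left out, 102 with single matches (an alternative chosen after seeing the data) and 150.0 with DESeq2. Log2 fold changes near 0, none past the threshold, reversed sign: JUP was 0.26 with library totals, 0.17 without a filter and -0.16 to 0.040 with a library left out; BTK 0.23, 0.12 and -0.29 to 0.061; JAGN1 0.30, 0.18 and -0.15 to 0.094; DCUN1D2 0.0041 with library totals and -0.92 to 0.091 with a library left out. The causes were not tested. Deviations from group means gave no sign of pairing by replicate number. Same-number correlations were 0.00355, -0.0408 and -0.000683, and the samples did not each correlate best with their own number. These correlations cannot show whether samples of the same number shared a clutch or sort, which the labels do not say. With the replicate block, 1651 genes were higher, 1277 lower and 118 list genes higher. Levels near 1 CPM rest on about 13 to 14 reads in a control library, which limits the precision there. Partners that passed only under an alternative were HHATL (3 alternatives), SEPTIN8 (4) and F2R (2).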
